A study of Mus musculus with 9 samples.

Results

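Complement is a set of plasma proteins that is activated in a chain of cleavages. C1q recognises bound antibody or altered surfaces and opens the classical pathway through C4 and C2, while factor B and properdin drive the alternative pathway. C1 inhibitor holds the opening protease complex in check. Most plasma complement is made in the liver, and tissue macrophages are a local source, above all of C1q and properdin. The genes described here were 9 listed complement components and regulators, of which 8 had a probe set that carried only their symbol among 19752 genes with such a probe set. They were C1qa, C1qb, C1qc, C2, C4b, Cfb, Cfp and Serping1. C3 was listed as well and is not analysed here. Each of the 8 genes had a single such probe set, and no filter on low values was applied, so all 8 were tested.

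The arrays measured RNA of macrophages sorted in 2 rounds from the peritoneal lavage of male C57BL/6 mice aged 6 weeks. The 4 arrays of the IFNa group came from mice given 10000 U of recombinant IFNa, interferon alpha of the type I family. The 2 arrays of the IFNg group came from mice given 8000 U of recombinant IFNg, interferon gamma, and the 3 untreated arrays from mice given nothing. The injection was subcutaneous, lavage followed 2 h later, and no mice injected with vehicle were included, so effects of injection and of interferon cannot be told apart in a comparison with untreated. The marker label of the treated samples names F4/80 and ICAM2, that of the untreated samples F4/80 alone, and the description of the series F4/80 and ICAM for all. No label says whether an array holds 1 mouse or a pool, so p-values measure the spread between these arrays.

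Values are RMA intensities, a background-corrected and normalized brightness per probe set. Arrays count no molecules, and the small number of arrays limits the precision. Median intensity lay between 162.2 and 178.3 in the 9 arrays. IFNa replicate 4 and untreated replicate 1 had a narrow intensity range, with a log2 ratio of upper to lower quartile of 2.16 and 2.27 against 2.68 to 3.03 in the other arrays, and results whose call changes without these 2 arrays are given with and without them. All 7 measured markers of the large peritoneal macrophage, such as Adgre1 and Timd4, lay above the median of all genes. All measured markers of T and NK cells (7), of mast cells (6) and of neutrophils and eosinophils (8) lay below it, as did 6 of 7 for B cells and 8 of 12 for mesothelial and stromal cells. Below it lay only 2 of 8 markers of small peritoneal macrophages, monocytes and dendritic cells and 2 of 4 of erythroid cells and platelets, so these lists were not low as a whole. The summed intensity of the B cell markers was 2210 in IFNa replicate 2 and 677 to 1166 in the other arrays.

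C1qa, C1qb and C1qc encode the 3 chains of C1q and lie next to each other on mouse chromosome 4. C1qa had intensities of 6519, 5289 and 6115 in the untreated arrays, 5526, 6927, 6328 and 6737 after IFNa, and 6208 and 6310 after IFNg. C1qb read 11198, 12721 and 12293 untreated, 12181, 12396, 11934 and 12124 after IFNa, and 12293 and 12575 after IFNg. C1qc read 9421, 10318 and 10725 untreated, 9217, 10119, 9483 and 10388 after IFNa, and 10242 and 10426 after IFNg. The groups overlapped for all 3 genes, and no array stood apart in all of them. From the lowest to the highest of the 9 arrays, C1qa spanned 1.31-fold, C1qb 1.14-fold and C1qc 1.16-fold.

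None of the 3 C1q genes passed the test in any comparison, and the intervals around their differences were narrow. A linear model in limma, with p-values adjusted over all 19752 genes, was used here and below, and a gene was called at an adjusted p under 0.05. After IFNa, C1qa differed from untreated by log2 0.09 ± 0.12 (standard error, 1.07-fold, 95% interval 0.882 to 1.29), C1qb by 0.01 ± 0.10 (0.866 to 1.18) and C1qc by -0.05 ± 0.10 (0.822 to 1.13). After IFNg the folds were 1.05 (0.837 to 1.32), 1.03 (0.859 to 1.24) and 1.02 (0.841 to 1.24), with 2 against 3 arrays. Adjusted p-values of the 6 differences lay between 0.882 and 0.988. These intervals are not adjusted for the number of genes, and a p that misses the threshold does not show that the levels were equal. The direction of the C1qb differences was not fixed by the data, since after either interferon it turned under quantile normalization or without untreated replicate 1. After IFNa, C1qa stayed positive and C1qc negative in every other setting of the fit, though as small as 0.0096 and -0.0101. After IFNg, both changed sign in some settings. Between IFNa and IFNg none of the 3 passed either, with folds of 1.02 (0.817 to 1.26), 0.978 (0.822 to 1.16) and 0.947 (0.789 to 1.14).

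RefSeq promoters were matched for 3 of the 8 genes (build GRCm38.p6), C1qb, C1qc and Cfp. The 250 bases before the start site of each are shown as the matched ones, and these 3 genes also had the smallest span over the 9 arrays. They were searched on both strands for ISRE, the interferon-stimulated response element (GAAANNGAAA). Its letters were found in 2.98% of 32851 mouse promoter windows of this length. They did not occur in the windows of C1qb (chr4:136886201-136886450, minus strand), C1qc (chr4:136892915-136893164, minus strand) or Cfp (chrX:20931556-20931805, minus strand), so no bases are in capitals. That says only that these letters are not in these windows.
C1qb: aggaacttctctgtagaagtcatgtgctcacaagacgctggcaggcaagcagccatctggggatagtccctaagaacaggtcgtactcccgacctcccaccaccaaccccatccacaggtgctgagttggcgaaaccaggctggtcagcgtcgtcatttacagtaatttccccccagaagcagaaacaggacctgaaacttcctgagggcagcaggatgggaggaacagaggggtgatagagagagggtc
C1qc: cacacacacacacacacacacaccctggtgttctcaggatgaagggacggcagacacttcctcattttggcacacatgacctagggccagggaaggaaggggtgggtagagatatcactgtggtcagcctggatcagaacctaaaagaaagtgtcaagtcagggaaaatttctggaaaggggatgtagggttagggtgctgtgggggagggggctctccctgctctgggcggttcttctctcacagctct
Cfp: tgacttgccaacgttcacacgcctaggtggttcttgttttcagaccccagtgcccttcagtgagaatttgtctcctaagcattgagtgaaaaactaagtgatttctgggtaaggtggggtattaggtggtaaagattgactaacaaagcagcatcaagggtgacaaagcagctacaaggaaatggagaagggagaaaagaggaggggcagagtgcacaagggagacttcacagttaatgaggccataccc

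Cfp encodes properdin, which stabilises the convertase of the alternative pathway. Its intensities were 10428, 10257 and 10928 untreated, 9883, 10496, 9288 and 10867 after IFNa, and 10065 and 10870 after IFNg. The groups overlapped, and the 9 arrays spanned 1.18-fold. The difference from untreated was log2 -0.06 ± 0.10 after IFNa (0.96-fold, 95% interval 0.817 to 1.13, adjusted p = 0.939) and -0.01 ± 0.12 after IFNg (0.993-fold, 0.818 to 1.21, adjusted p = 0.983).

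Cfb encodes factor B, the protease zymogen of the alternative pathway, and was the only one of the 8 genes called in any comparison. It read 1493, 1497 and 1799 in the untreated arrays, 1892 and 1929 after IFNg, and 2163, 2152.5, 2437 and 2735 after IFNa. All IFNa arrays lay above both IFNg arrays, and these above all untreated arrays. Of 19752 genes, 196 (0.992%) had their arrays in this order with no overlap between the 3 groups. The order was taken from the Cfb values themselves, so this share is a description. Each of the other orders of the 3 groups held 17 to 165 genes. The group means were log2 10.64 ± 0.15 (SD, n = 3) untreated, 10.90 ± 0.02 (n = 2) after IFNg and 11.20 ± 0.16 (n = 4) after IFNa.

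After IFNa, Cfb rose by log2 0.57 ± 0.13, or 1.48-fold (95% interval 1.22 to 1.81, adjusted p = 0.04999 in limma), in 4 of 4 arrays. This adjusted p lies just under the threshold, and of 21 other settings of the fit 7 kept the call and 14 did not, with adjusted p up to 0.245 and differences from 0.44 to 0.66. The difference without the 2 arrays of narrow range was 0.45 ± 0.11 (adjusted p = 0.0566), and the call held without untreated replicate 3 (0.66, adjusted p = 0.0363) but not without any other single array (0.0553 to 0.245). After IFNg the difference was 0.26 ± 0.15 (1.20-fold, 0.948 to 1.52, adjusted p = 0.703), and under quantile normalization it was 0.06. The difference between IFNa and IFNg was 0.31 ± 0.14 (1.24-fold, 0.987 to 1.55, adjusted p = 0.759). The doses and types of interferon differ in that comparison, which shares the IFNa and IFNg arrays with the others.

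**Figure D1:**
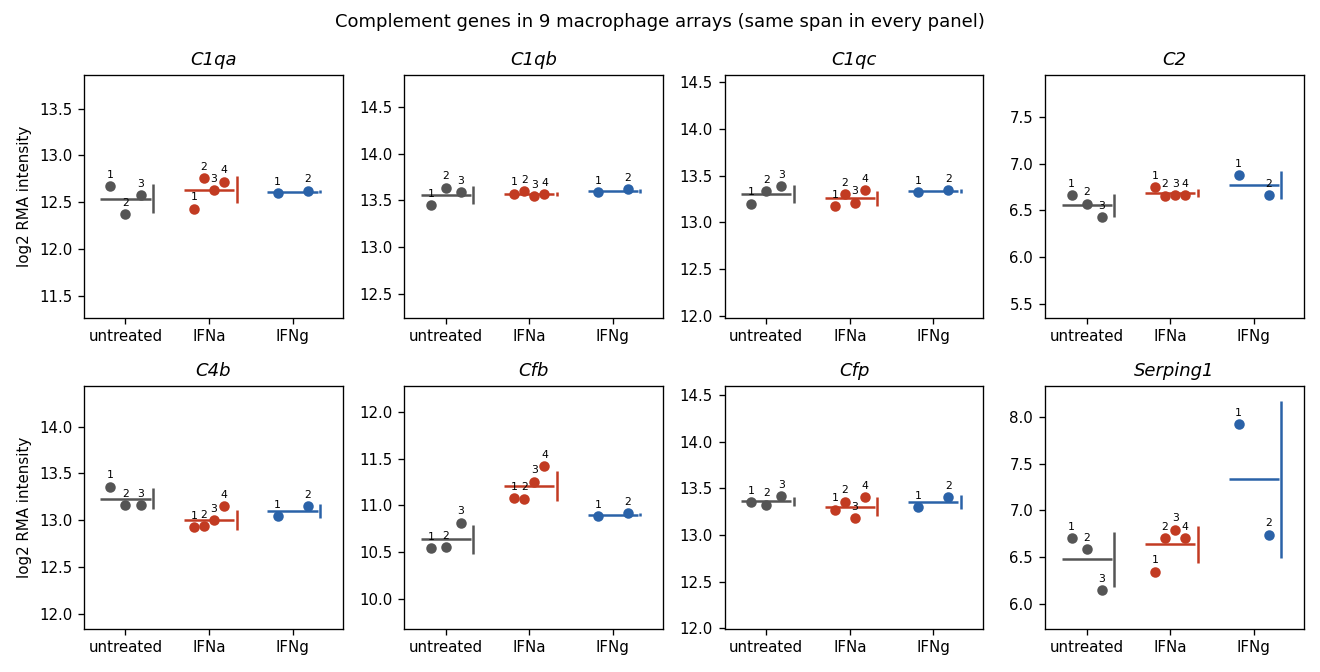
Each panel plots the log2 RMA intensity of 1 complement gene in the untreated (grey), IFNa (red) and IFNg (blue) arrays; points are arrays with their replicate number, horizontal lines group means and vertical lines ± 1 SD, and every panel has the same span. Cfb shows the 3 groups apart, with means of 10.64, 10.90 and 11.20, while in Serping1 a single IFNg array, at 7.92, stands above all others.

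The genes whose log2 values ran most like Cfb over the 9 arrays, predicted genes aside, were Slc15a3 (Pearson r = 0.974), Daxx (0.966) and Ifi35 (0.965). The arrays fall into treatment groups, which these values share with Cfb, so they are a description. Mean log2 values of Slc15a3 were 9.13 untreated, 9.54 after IFNg and 10.36 after IFNa, those of Daxx 8.59, 9.91 and 11.12, and those of Ifi35 8.85, 10.01 and 10.63. All 3 had the order of groups seen in Cfb and a wider span. For C1qa the closest genes were Cnga2 (0.894), Cenpb (0.884) and Phgdh (0.876), and the group means of Cnga2 were 5.13 untreated, 5.14 after IFNa and 5.15 after IFNg, beside 12.54, 12.63 and 12.61 for C1qa.

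C2 encodes the classical-pathway counterpart of factor B and is the neighbour of Cfb on chromosome 17. Its probe set was dim, with a mean at the 33.4th percentile of all genes. It read 101.6, 95.2 and 85.9 untreated, 107.4, 101.0, 101.6 and 101.6 after IFNa, and 117.7 and 101.6 after IFNg. The same deposited value was given to 4 arrays from all 3 groups, and the groups overlapped. C2 differed from untreated by log2 0.13 ± 0.11 after IFNa (1.09-fold, 95% interval 0.924 to 1.3, adjusted p = 0.816) and by 0.22 ± 0.13 after IFNg (1.16-fold, 0.95 to 1.43, adjusted p = 0.711).

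C4b encodes complement C4, cleaved by the C1 complex to start the C3 convertase of the classical and lectin pathways. It read 10496, 9176 and 9159 untreated, 7767, 7837, 8179 and 9097 after IFNa, and 8445 and 9099 after IFNg. Every treated array lay below every untreated one, though by little for IFNa replicate 4 and IFNg replicate 2, at 9097 and 9099 against 9159. The difference from untreated was log2 -0.23 ± 0.11 after IFNa (0.855-fold, 95% interval 0.72 to 1.02, adjusted p = 0.503) and -0.13 ± 0.13 after IFNg (0.914-fold, 0.744 to 1.12, adjusted p = 0.794), and neither passed. C4a, a close copy of C4b whose RNA a probe set may not fully tell apart, differed by -0.33 ± 0.13 after IFNa (adjusted p = 0.351). In sorted populations such as these, fewer cells expressing a gene and less RNA per cell cannot be told apart.

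Serping1 encodes C1 inhibitor, the serpin that blocks C1r, C1s and the lectin-pathway proteases. Its probe set was dim in most arrays, with a mean at the 35th percentile of all genes. It read 104.0, 95.7 and 70.8 untreated, 81.2, 104.0, 111.0 and 104.0 after IFNa, and 242.9 and 106.8 after IFNg. IFNg replicate 1 was thus 2.27-fold above IFNg replicate 2, and the latter lay inside the range of the IFNa arrays and just above the highest untreated array. The IFNg mean differed from untreated by log2 0.86 ± 0.31 (1.81-fold, 95% interval 1.11 to 2.94, adjusted p = 0.461), and without IFNg replicate 1 the difference was 0.26 ± 0.26. After IFNa the difference was 0.16 ± 0.26 (1.12-fold, 0.743 to 1.68, adjusted p = 0.93). Between IFNa and IFNg it was -0.70 ± 0.30 (adjusted p = 0.667), and it was -0.10 ± 0.26 without IFNg replicate 1 and -1.29 ± 0.26 without IFNg replicate 2. Serping1 had the largest spread within groups of the 8 genes, a residual SD of 0.407 against 0.058 to 0.146 in the others.

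In the same array, IFNg replicate 1, the summed intensity of 8 markers of small peritoneal macrophages, monocytes and dendritic cells was 3534, against 2562 to 3100 in the other arrays. The lectin gene Clec10a read 1068 there, 664.2 in IFNg replicate 2 and 281.1 to 614.1 elsewhere. Without Clec10a the sum was 2466 and lay inside the range of the other arrays, 2081 to 2643. Of the 8 markers, Clec10a and Plac8 were highest in IFNg replicate 1, Flt3 and Cx3cr1 lowest, and 4 inside the range. Both IFNg arrays lay above all others in Clec10a, and all treated arrays above all untreated ones in Plac8. The summed intensity of 12 mesothelial and stromal markers was 1730 in that array and 1523 to 2186 elsewhere. Their part in the Serping1 value was not tested.

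**Figure D2:**
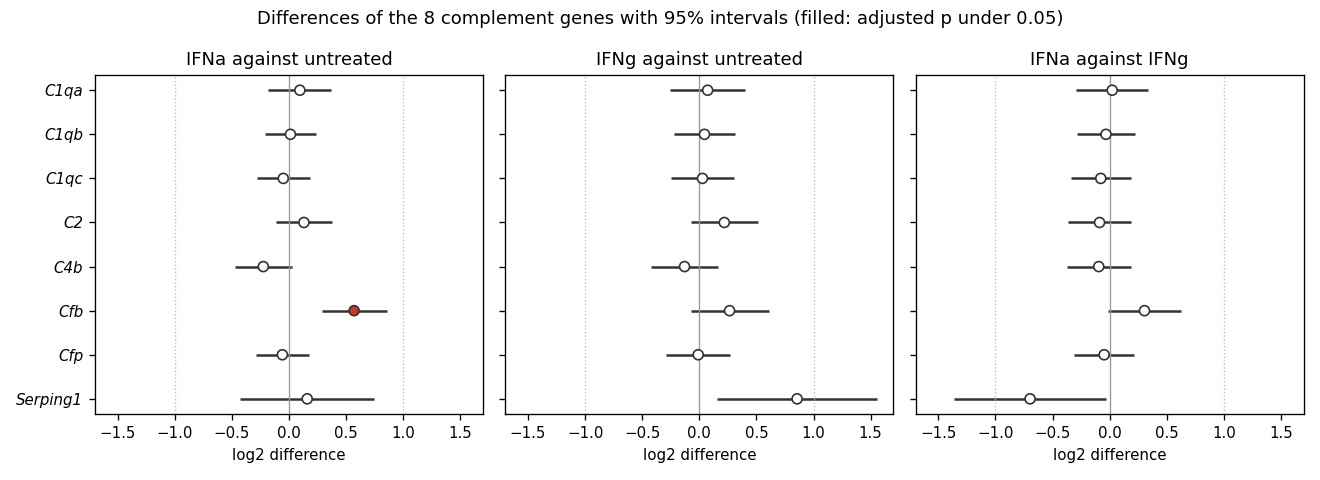
Points are log2 differences of the 8 complement genes in the 3 comparisons, lines their 95% intervals from the limma fit, unadjusted, and dotted lines mark a 2-fold change; filled points have an adjusted p under 0.05. Cfb after IFNa is the one filled point, at 0.57, and the Serping1 intervals are the widest.

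Counted over the 8 genes, 1 was called after IFNa, against 2.65% of all genes (1.79% called as higher), and without the 2 arrays of narrow range none was. Without these arrays some uncalled differences also moved by over 1.5 times, such as C1qc after IFNa (-0.13), Serping1 after IFNa (0.25), C1qa after IFNg (0.14) and C4b after IFNg (-0.06). None was called after IFNg, against 1.35%, nor between IFNa and IFNg, against 0.977%. In limma 1 gene, Serping1, had an unadjusted p under 0.05 in each of these last 2 comparisons (0.0218 and 0.0418), against 1626 and 1397 of 19752 genes. Both Serping1 differences were smaller in size without IFNg replicate 1, as given above. The arrays of the groups compared did not overlap for 2 of 8 genes after IFNa (10.4% of all genes), for 3 after IFNg (27.8%) and for 1 between the treatments (28.4%). The median difference of the 8 genes was log2 0.05 after IFNa and 0.06 after IFNg, against -0.02 and -0.06 over all genes. Of the 24 intervals, 22 lay within a 2-fold change in either direction, and the other 2, for Serping1 after IFNg and between the treatments, reached beyond it. Within 1.5-fold lay 18, and the 6 that reached further belonged to Cfb and Serping1.

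Of 49 further complement genes listed, 44 had a probe set of their own, and none of them was called in any of the 3 comparisons by limma. At an unadjusted p under 0.05 there were 2 of the 44 in each comparison. Over all 19752 genes these counts were 2356 after IFNa, 1626 after IFNg and 1397 between the treatments. The median difference of the 44 genes was log2 -0.01 after IFNa and -0.09 after IFNg. Irf1, the gene of an interferon-induced transcription factor, rose in the same arrays by 2.39 ± 0.21 after IFNa and 3.50 ± 0.26 after IFNg (adjusted p = 0.000165 and 0.000125).

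Among the 11 initiators of the classical and lectin pathways beside C1q, Mbl2, a mannose-binding lectin, had the smallest p after both interferons (-0.29 ± 0.15 and -0.43 ± 0.18, adjusted p = 0.545 and 0.581). It was followed by Colec10 after IFNa (0.24 ± 0.20) and C1ra after IFNg (0.22 ± 0.24). Of 8 genes of C4a and the terminal components, which form the membrane attack complex, C4a and C8g led after IFNa (-0.33 and -0.16), and C8g and C8b after IFNg (-0.21 and -0.26). C8b read 137.4 in untreated replicate 1, an array of narrow range, 92.1 and 92.0 in the other untreated arrays, and 92.5 and 83.3 after IFNg. Of 7 soluble regulators Vtn and C4bp led after IFNa (-0.20 and 0.16), and Cfi, the protease that degrades C3b and C4b, and Cpn2 after IFNg (-0.27 and -0.22). C4bp read 106.1 in IFNa replicate 4, an array of narrow range, 56.8 to 64.9 in the other IFNa arrays and 51.8 to 69.5 untreated. None of the genes named for these roles passed, with adjusted p of 0.351 or more. Except for C1ra and C4a, their probe sets were dim. They read below the median intensity of the array everywhere but for Mbl2 in untreated replicate 1 (191.1 against 178.3), an array of narrow range.

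Membrane regulators protect the cell's own surface from complement. Of 8 measured, Cd46, a cofactor for factor I, had the smallest p, with intensities of 99.6, 97.4 and 102.0 untreated, 126.5, 138.9, 123.8 and 88.4 after IFNa, and 141.4 and 154.3 after IFNg. Its probe set was dim, below the median intensity of the array in every array. Both IFNg arrays lay above all others, and IFNa replicate 4, an array of narrow range, lay below all others. IFNg and untreated arrays did not overlap for 6 of the 44 further complement genes (27.8% of all genes). The difference of Cd46 after IFNg was log2 0.57 ± 0.18 (adjusted p = 0.346). It passed without IFNa replicate 4 (0.57 ± 0.11, adjusted p = 0.0376) and without both arrays of narrow range (0.57 ± 0.10, adjusted p = 0.0318). After IFNa, Cd46 differed by 0.24 ± 0.15 (adjusted p = 0.684) and Cr1l, the mouse regulator Crry, by 0.25 ± 0.18 (0.732). After IFNg, Cd55, which speeds the decay of convertases, differed by -0.30 ± 0.20 (0.722).

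Of 10 complement receptors none was called. C5ar1, the receptor for the fragment C5a, read 1704, 1647 and 1974 untreated, 1145, 1291, 1438 and 1592 after IFNa, and 1645 and 2152.5 after IFNg. All IFNa arrays lay below the other 5, and the difference was log2 -0.38 ± 0.15 from untreated (adjusted p = 0.327) and -0.47 ± 0.17 from IFNg (adjusted p = 0.493). IFNa and untreated arrays did not overlap for 2 of the 44 further complement genes (10.4% of all genes). IFNa and IFNg arrays did not overlap for 13 of them (28.4% of all genes). Cr2, a complement receptor of B cells, differed by 0.40 ± 0.19 after IFNa (adjusted p = 0.454), and its highest value, 99.3, was in IFNa replicate 2, the array with the highest sum of B cell markers. Their part in it was not tested. After IFNg the receptors with the smallest p were C1qbp (0.31 ± 0.34, adjusted p = 0.804) and C5ar2 (0.13 ± 0.19, 0.842). Among the untreated and IFNg arrays, both were lowest in untreated replicate 1, an array of narrow range. C1qbp read 501.3 there, 1002.5 and 1034.0 in the other untreated arrays, and 1008.5 and 980.5 after IFNg. It read 498.8 in IFNa replicate 4, the other array of narrow range, and 756.3 to 909.9 in the remaining IFNa arrays. C5ar2 read 282.9 in untreated replicate 1, 390.8 and 431.3 in the other untreated arrays, and 369.8 and 423.7 after IFNg.

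**Figure D3:**
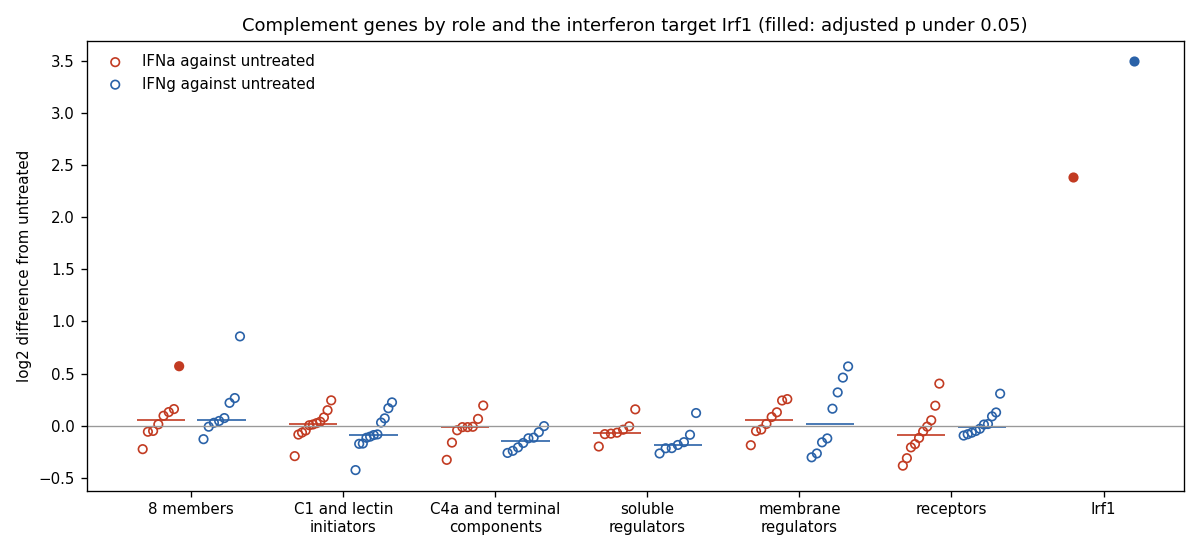
Points are log2 differences from untreated after IFNa (red) and IFNg (blue) for the 8 complement genes, the 44 other complement genes by role, and Irf1; short lines are medians and filled points have an adjusted p under 0.05. All complement genes lie between -0.43 and 0.86, with Cfb after IFNa as the single filled one, while Irf1 stands at 2.39 and 3.50.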

How the data were processed

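The arrays were single-colour Affymetrix whole-transcript arrays of biotin-labelled total RNA extracted with TriZol, per the labels' protocols. The authors deposited 1 linear-scale RMA intensity per probe set and array, made with Affymetrix Power Tools per the submitters' processing notes. Versions, and which arrays were normalized together, are not given in the sources used here. These intensities were used as log2 values, with no filter.

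Of 24922 probe sets, 21425 carried 1 gene symbol in the platform annotation, 1399 several and 2098 none. The brightest of these with 1 symbol stood for a gene, which left 19752 genes. A deposited value shared exactly by 2 or more arrays occurred in 38.3% of probe sets, and between arrays of different groups in 31.0%.

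Groups followed the treatment label. A model with 3 group means over all 9 arrays was fitted in limma 3.58.1 (R 4.3.3), with 6 residual and 3.62 prior degrees of freedom, and the spread of the 2 IFNg arrays was taken to equal that of the other groups. P-values were two-sided and adjusted over all genes (Benjamini-Hochberg), and the model was tested on simulated data. Named were all 8 genes, up to 2 further complement genes per role, and the 3 genes most correlated with C1qa and with each called gene. The members and lists were chosen with earlier results of these data known. Gene neighbours came from RefSeq (GRCm38.p6), and figures were drawn with matplotlib 3.10.9.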

Additional observations from a re-analysis of the deposited data

Results flagged for a closer look

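In 8 groups of 4 IFNa arrays, 1 for each complement gene, the gap from the outermost array to its nearest neighbour was compared with the whole range. For C2 the gap was 0.898 of the range, beyond the 95% critical value of Dixon's test. IFNa replicate 1 read 107.4 and the other 3 arrays 101.0, 101.6 and 101.6, with 2 of these at the same deposited value. Chance alone marks about 1 in 20 such groups.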

How the results depend on the processing

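Over 498 values of the 8 complement genes under other settings, 451 kept their direction and side of the threshold, 27 changed sign, 14 (all Cfb after IFNa) lost the call and 6 (all under array weights) gained one. The number of the 8 genes called after IFNa, 1 as reported, was 0 with an intensity trend, robust variances, quantile normalization, median centring, only the 2 groups compared, an adjusted p under 0.01 or a 2-fold minimum, and 0 without both arrays of narrow range. It was 0 to 1 when each array was left out, with 1 without untreated replicate 3. The cause was not tested. C2 and Serping1 have no value without the dimmest 50% of genes, since they fall below that limit.

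Where a sign changed, the value in that setting was at most log2 0.084 in size. The reported difference could be larger, such as 0.16 for Serping1 after IFNa. C1qb after IFNa and IFNg was -0.018 and -0.011 under quantile normalization, -0.039 and -0.0083 without the narrow arrays, and -0.059 and -0.033 under array weights. C1qc after IFNg was -0.023 under quantile normalization and -0.026 without the narrow arrays. Cfp after IFNg was 0.031 under median centring and 0.028 under array weights. C1qa between IFNa and IFNg was -0.0058 without the narrow arrays. Leaving out each array gave after IFNa -0.041 to 0.051 for C1qb and -0.0062 to 0.27 for Serping1. It gave after IFNg -0.013 to 0.14 for C1qa, -0.0084 to 0.084 for C1qb, -0.026 to 0.068 for C1qc and -0.066 to 0.045 for Cfp. Between IFNa and IFNg it gave -0.019 to 0.090 for C1qa, -0.19 to 0.018 for C2 and -0.10 to 0.0072 for Cfp.

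Whether replicate numbers in titles or descriptions pair the arrays could not be decided, and the main fit used no pairing. Deviations from group means correlated at r = -0.211 (IFNa and untreated replicate 1) to 0.604 (IFNa and untreated replicate 3) for the same title number. For the same description number r was -0.442 to 0.106. Deviations within a group depend on each other. IFNa replicate 4 and untreated replicate 1, of different numbers and both of narrow range, reached 0.609, so these r-values cannot settle it. With the replicate block, Cfb after IFNa was called (adjusted p = 0.0327 by title and 0.0324 by description number). IFNa replicate 4 shares neither number with another array, so it adds nothing to the differences in these fits. By description number, IFNa replicate 1 also shares its number with another IFNa array. In the replicate block by title number 827 genes were called after IFNa, 699 after IFNg, and C1qa between treatments was -0.021. In the replicate block by description number 924 were called after IFNa, C1qa and C1qb between treatments were -0.037 and 0.016, Serping1 after IFNa -0.084 and C1qc after IFNg -0.0003.

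The array weights did not converge and gave untreated replicate 2 a weight of 141 against 0.0945 to 1.93 in the others. Counts against untreated under these weights thus rest mainly on 1 untreated array. Differences between the treatments use no untreated mean and share only the estimate of spread. Called were 9344 genes after IFNa, 9900 after IFNg and 1640 between the treatments. These held 3 and 4 of the 8 genes after IFNa and IFNg, and 23, 18 and 3 of the other complement genes.

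Over all genes 523 were called after IFNa, 267 after IFNg and 193 between the treatments. Without both narrow arrays these numbers were 1106, 503 and 542, with 1 other complement gene (Cd46) after IFNg, and at an adjusted p under 0.01 they were 278, 131 and 90. After IFNa 293 changed at least 2-fold and 921 were called under quantile normalization, and after IFNg 119 were called with only the 2 groups compared. Leaving out each array gave 288 to 600, 80 to 391 and 42 to 276, and 0 to 1 other complement genes after IFNg, the lowest without untreated replicate 2 (IFNa) and IFNg replicate 1. Of the calls after IFNa 67.7% were higher, 54.3% under quantile normalization; after IFNg 91.8% and 77.5%; between the treatments 45.1% and 58.0%.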

Other observations

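The gap between the 2 IFNg arrays in Serping1 had few counterparts. Of 19752 genes, 10 were at least log2 1 higher in IFNg replicate 1 than in replicate 2 and 15 at least that much lower. Only 4 genes, chosen after their values were seen, lay at least log2 1 above every other array in IFNg replicate 1. They were Gbp4, a guanylate-binding protein gene, Serping1, Id1, an inhibitor of helix-loop-helix transcription factors, and Ust, a sulfotransferase gene. Gbp4 read 2700 and 1163 in the 2 IFNg arrays, 722.0 to 948.5 after IFNa and 55.6 to 91.7 untreated. Gbp4 was thus higher in both IFNg arrays than in any other array, and Id1 (892.5 and 356.9, with 240.6 to 425.0 elsewhere) and Ust (668.1 and 306.6, with 204.0 to 333.8 elsewhere) were not. In IFNa replicate 4 the number of genes so far above every other array was 227, and in the other arrays it was 0 to 9.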
